A study of Rattus norvegicus with 18 samples.

Results

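The comparison described here is glucose stimulation after calcidiol in INS1E cells, an insulin-secreting clonal beta-cell line that came from a rat insulinoma. It set the 3 arrays labelled calcidiol with glucose against the 3 arrays labelled calcidiol, 6 of the 18 arrays of the series, chosen by sample title. The cells of both groups were cultured at 11 mM glucose with 10 nM calcidiol (25-hydroxyvitamin D) for 72 h and then held for 60 min in Krebs-Ringer buffer with no glucose. The calcidiol with glucose group then received 22 mM glucose for 60 min, and the calcidiol group did not. The other 12 arrays, 3 in each of 4 groups, came from cells kept in the same way with 10 nM calcitriol (1,25-dihydroxyvitamin D) or with no vitamin D, each with and without the 22 mM glucose. They are the calcitriol with glucose, calcitriol, glucose and control groups. Arrays carry the numbers 1 to 3 within a group, and nothing in the labels says that these were separate cultures. The p-values therefore cover the spread between the samples measured, which may be technical. Because the unstimulated cells also came out of a glucose-free hour, neither group was at its culture glucose.

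Glucose enters a beta cell, is metabolised to ATP, closes ATP-sensitive potassium channels and so lets calcium in, which releases insulin. Calcium and cAMP also act on transcription through CREB, a factor that binds promoters of immediate early genes, and through serum response factor. Sugar phosphates act through ChREBP, a factor whose best known beta-cell target is Txnip. Calcidiol is the circulating precursor that cells with a 1-alpha-hydroxylase can convert to calcitriol, the ligand of the vitamin D receptor.

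The beta-cell label matched its markers. The table held 11 of 12 beta-cell markers, all 11 were above the filter on low values, and their log2 signals on the 6 calcidiol arrays lay between 7.92 and 13.06. Of 30 markers of other islet, pancreas and stromal cells, the table held 15, of which 4 were above that filter. They included the glucagon gene Gcg and the duct markers Krt7 and Sox9, while the somatostatin gene Sst stayed between 5.02 and 5.22. Gcg was 12.10, 12.16 and 10.20 on calcidiol with glucose 1, 2 and 3, against 11.82, 12.04 and 10.27 on calcidiol 1, 2 and 3. Krt7 was 9.51, 9.49 and 10.88 on calcidiol with glucose 1, 2 and 3, against 9.72, 9.79 and 10.86 on calcidiol 1, 2 and 3. Both genes thus differed between the arrays numbered 3 and the others more than between the glucose states, and their part in the results was not tested. The log2 mean signal of the 15 markers was 8.64, 8.71 and 8.12 on calcidiol with glucose 1, 2 and 3, against 8.45, 8.68 and 8.11 on calcidiol 1, 2 and 3. The mean was taken on unlogged signals, so it mostly follows the highest markers, Gcg and Krt7. On the arrays numbered 3 Gcg was lower and Krt7 higher, so this mean does not describe the 15 markers as a class. In such bulk RNA, fewer cells of a kind and less RNA per cell cannot be told apart.

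The calcidiol arrays numbered 3 stood apart from the others and were close to each other. Over the 9852 genes tested, calcidiol with glucose 3 minus calcidiol 3 had an SD of 0.0767 log2 units, the smallest of all 153 pairs of arrays in the series. The next closest pair, calcitriol 2 and control 2, had an SD of 0.110, and the 18 pairs within a group ran from 0.113 to 0.330 with a median of 0.207. The difference had an SD of 0.242 between the calcidiol arrays numbered 1 and 0.187 between those numbered 2. In the other pretreatments the same-numbered pair with and without glucose was also closest for number 3. The SD of calcitriol with glucose minus calcitriol was 0.227, 0.223 and 0.116 for numbers 1, 2 and 3. For glucose minus control it was 0.188, 0.177 and 0.136. Casr, the calcium-sensing receptor gene, was 6.32, 6.48 and 9.55 on calcidiol with glucose 1, 2 and 3, against 6.20, 6.30 and 9.52 on calcidiol 1, 2 and 3. Whether these arrays share a culture or an RNA sample was not tested. The array labels were kept as given. Calls are given with and without the arrays numbered 3. Differences of most named genes from the fit without them are followed by those on all 18 arrays. Interaction contrasts are so followed for Txnip, Jun and Nr4a1 only.

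With all 18 arrays in 1 limma model, no gene passed at an adjusted p of 0.05 (0 of 9852, 0.0%). By limma 459 genes had an unadjusted p under 0.05, fewer than the share of 0.05 expected if no gene differed. The lowest adjusted p was 0.962, so no difference given for the 18 arrays was called. With the replicate number as a block the count was also 0, with 832 genes, more than that share, at an unadjusted p under 0.05. Among the genes of smallest p on the 18 arrays, the lysine methyltransferase gene Setd6 was 7.95, 7.94 and 7.56 on calcidiol with glucose 1, 2 and 3, against 7.45, 7.43 and 7.35 on calcidiol 1, 2 and 3. These values did not overlap, the means were 7.82 ± 0.22 with glucose and 7.41 ± 0.05 without (SD, n = 3 each), and limma gave an adjusted p of 0.962 for the difference of 0.41. In all, 145 genes (1.47%) lay higher on all 3 calcidiol with glucose arrays than on any calcidiol array, and 359 (3.64%) lay lower. If the arrays were interchangeable, a share of 0.1 of genes would separate in either direction, and these counts together fall short of that.

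With the 6 arrays numbered 3 left out, the fit of the remaining 12 arrays called 133 of the 9852 genes (1.35%), of which 102 were higher (1.04%) and 31 lower (0.315%) after glucose. This 12-array fit was chosen with earlier results known, and it sets 2 calcidiol with glucose arrays against 2 calcidiol arrays. In what follows, rose and fell refer to genes called in it. With the replicate number as a block it called 241 genes (2.45%), 163 higher (1.65%) and 78 lower (0.792%), and all 133 were among them. Leaving out 1 further array moved the count to 71 without calcidiol with glucose 1, 401 without calcidiol with glucose 2, of which 282 were lower, 85 without calcidiol 1 and 104 without calcidiol 2. Leaving out calcidiol with glucose 3 alone gave 27 genes, 26 of them among the 133, and leaving out both calcidiol arrays numbered 3 gave 15, all among them.

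The count also depended on the arrays numbered 3 of the other groups, which enter the shared estimate of the spread. Leaving out only the calcidiol ones gave the same median difference over genes, -0.038, but 15 calls against 133. The differences between same-numbered calcidiol arrays are described next. Between the arrays numbered 1, 43 genes were higher by at least 1 log2 unit (a 2-fold difference) on the glucose array (0.436%) and 4 were lower by as much (0.0406%). Between those numbered 2, 41 were higher (0.416%) and 2 lower (0.0203%). Between those numbered 3 the number was 0 (0.0%), and 2 genes differed by as much as 0.5 in either direction (0.0203%), against 420 between the arrays numbered 1 (4.26%) and 165 between those numbered 2 (1.67%). Across the 9852 genes, which are not independent replicates, the differences of the arrays numbered 1 and 2 had a Pearson's r of 0.574. For the arrays numbered 1 and 3 it was -0.128, and for those numbered 2 and 3 it was -0.0740.

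**Figure D1:**
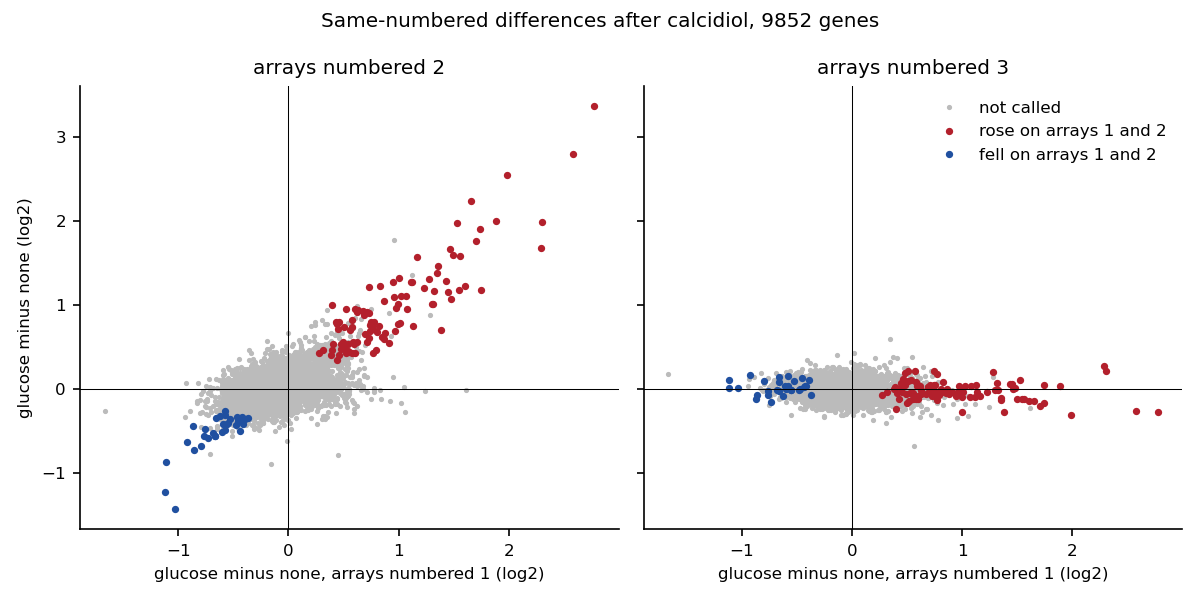
Each point is 1 of the 9852 genes, with the log2 difference calcidiol with glucose minus calcidiol between the arrays numbered 1 on the x axis and between the arrays numbered 2 (left) or 3 (right) on the y axis. Red and blue points are the 102 genes called higher and the 31 called lower on the 12 arrays, which separate in the left panel and lie between -0.309 and 0.269 in the right one.

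Immediate early genes encode transcription factors and signalling proteins that are transcribed within minutes of a stimulus without new protein synthesis. The table held 33 of the 38 genes on this list, 21 of them above the filter on low values, and of these 21 genes 8 rose and 4 fell in the 12-array fit. Their median difference was 0.33, against -0.04 over all genes tested, and on the 18 arrays it was 0.23 against -0.03. None was called on the 18 arrays, and the same holds for all 22 lists. Over all genes tested, 1.04% rose and 0.315% fell in the 12-array fit, which are the shares to set beside this and the following lists.

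Nr4a1, an orphan nuclear receptor gene, was 9.49, 10.22 and 8.67 on calcidiol with glucose 1, 2 and 3, against 6.72, 6.85 and 8.95 on calcidiol 1, 2 and 3. Numbers 1 and 2 were far above their calcidiol arrays, while both arrays numbered 3 lay between. On the 12 arrays Nr4a1 rose by 3.07 (SE 0.24, adjusted p = 1.06e-04 by limma), more than any other gene tested. On the 18 arrays it differed by 1.96 with a 95% interval of 0.52 to 3.39. Its relative Nr4a2 was 9.28, 9.36 and 7.63 on calcidiol with glucose 1, 2 and 3, against 7.30, 6.82 and 7.94 on calcidiol 1, 2 and 3. On the 12 arrays it rose by 2.26 (SE 0.16, adjusted p = 4.53e-05 by limma), while the glucose array was the lower of the 2 numbered 3. Its difference on the 18 arrays was 1.41.

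Zfp36 encodes tristetraprolin, which binds AU-rich elements and speeds decay of the mRNAs that carry them. It was 9.32, 9.57 and 6.71 on calcidiol with glucose 1, 2 and 3, against 6.74, 6.76 and 6.98 on calcidiol 1, 2 and 3. All arrays but calcidiol with glucose 1 and 2 lay within 0.3 of each other, and on the 12 arrays Zfp36 rose by 2.69 (SE 0.09, adjusted p = 1.57e-07 by limma). Hbegf, whose product is a ligand of the EGF receptor, was 10.21, 9.85 and 7.32 on calcidiol with glucose 1, 2 and 3, against 8.32, 7.84 and 7.29 on calcidiol 1, 2 and 3, and rose by 1.95. The stress-inducible Gadd45b rose by 1.82, the zinc finger repressor gene Klf10 by 1.57, the AP-1 subunit gene Junb by 1.41 and the stress factor gene Atf3 by 1.30. The differences on the 18 arrays were 1.70 for Zfp36, 1.31 for Hbegf, 1.23 for Gadd45b, 1.04 for Klf10, 0.90 for Junb and 0.89 for Atf3.

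The AP-1 subunit gene Jun moved the other way. It was 7.01, 6.83 and 7.69 on calcidiol with glucose 1, 2 and 3, against 8.12, 8.06 and 7.59 on calcidiol 1, 2 and 3, with both arrays numbered 3 between the groups. Jun fell by 1.17 (SE 0.10, adjusted p = 1.62e-04 by limma) on the 12 arrays. The growth regulator gene Myc fell by 0.80, the serum response factor gene Srf by 0.61 and the zinc finger factor gene Klf6 by 0.49. With all 18 arrays the differences were -0.75 for Jun, -0.55 for Myc, -0.36 for Srf and -0.33 for Klf6.

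Egr1 and Fos, often used as marks of beta-cell stimulation, were not called. Egr1 was 10.03, 10.88 and 10.06 on calcidiol with glucose 1, 2 and 3, against 10.03, 10.21 and 10.19 on calcidiol 1, 2 and 3. Calcidiol with glucose 2 was above the other 5 arrays, which lay close together, and the difference on the 12 arrays was 0.33 with a 95% interval of -0.13 to 0.79. Fos was left out of the test because its mean of 6.23 over the 18 arrays was under the filter value of 6.38. It was 6.40, 7.21 and 6.35 on calcidiol with glucose 1, 2 and 3, against 5.28, 5.27 and 6.69 on calcidiol 1, 2 and 3. The neuronal activity factor gene Npas4 was 8.21, 9.62 and 8.39 on calcidiol with glucose 1, 2 and 3, against 7.26, 7.84 and 8.74 on calcidiol 1, 2 and 3, with an adjusted p of 0.187 by limma on the 12 arrays.

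**Figure D2:**
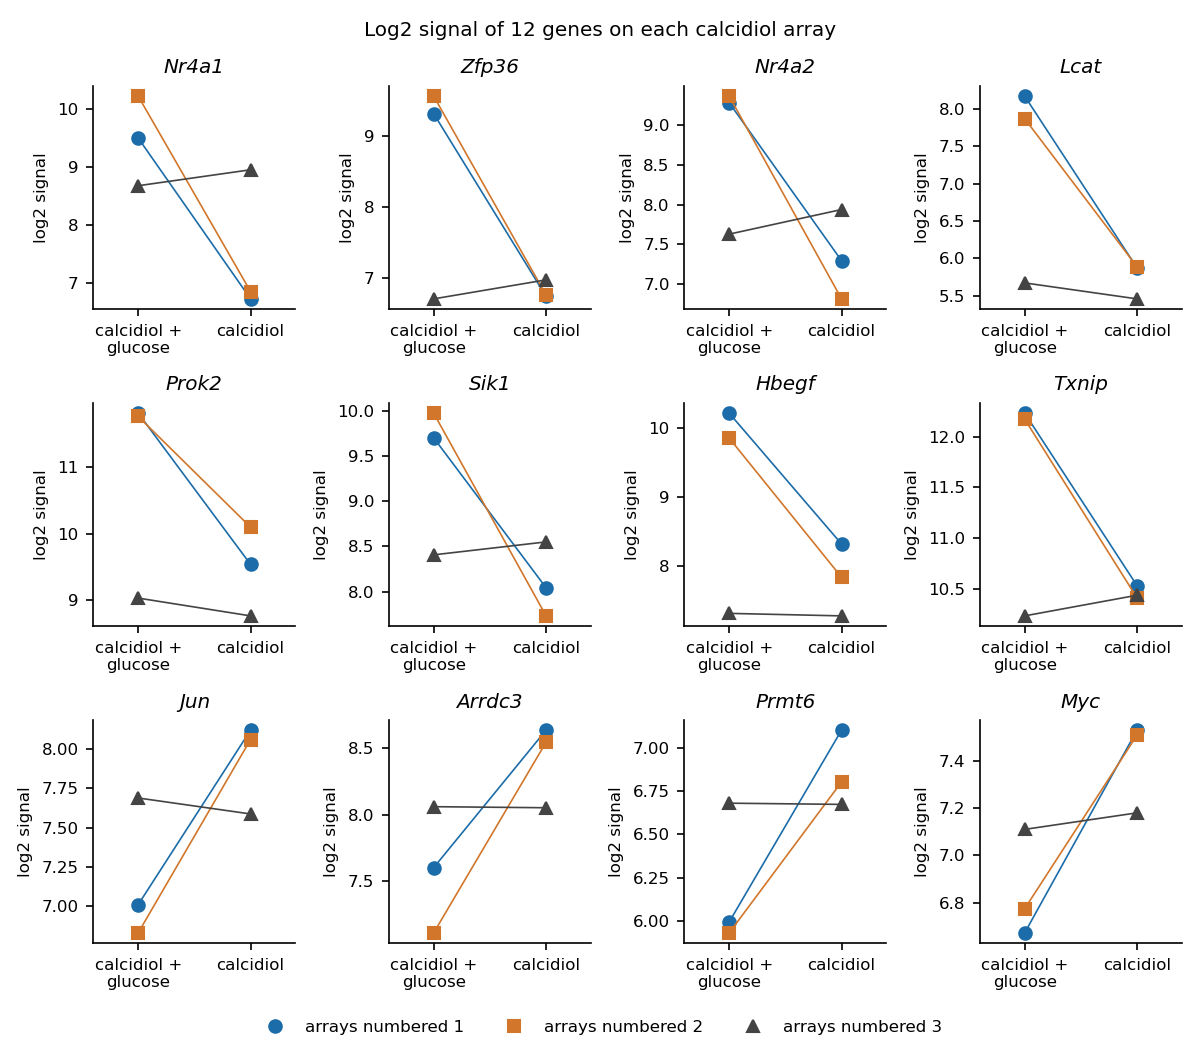
Log2 signal of 12 genes (y axis, a scale of its own in each panel) on the calcidiol with glucose and calcidiol arrays (x axis), with a line joining the arrays of the same number. Lines of numbers 1 and 2 run steeply in every panel, while those of number 3 are nearly flat. For Nr4a1, Nr4a2, Sik1, Jun, Arrdc3, Prmt6 and Myc the lines of number 3 lie between the groups.

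Genes that respond to calcium and cAMP through CREB overlapped with this set. Of 20 tested, 8 rose and 0 fell in the 12-array fit, beside 1.04% and 0.315% of all genes tested. The list's median difference was 0.57 (0.37 on the 18 arrays), and Nr4a1 and Nr4a2 are members of both lists. Sik1, a kinase that restrains CREB coactivators, was 9.70, 9.97 and 8.41 on calcidiol with glucose 1, 2 and 3, against 8.04, 7.73 and 8.55 on calcidiol 1, 2 and 3, and rose by 1.95 (SE 0.18, adjusted p = 3.31e-04 by limma). Ppargc1a, the gene of the mitochondrial coactivator PGC-1-alpha, was 8.35, 8.04 and 6.52 on calcidiol with glucose 1, 2 and 3, against 7.0, 6.66 and 6.62 on calcidiol 1, 2 and 3. It rose by 1.36 (SE 0.17, adjusted p = 0.00200 by limma), with both arrays numbered 3 below the calcidiol arrays numbered 1 and 2. Crem, a CREB relative whose short form represses transcription, rose by 1.20, the small GTPase gene Gem by 1.16, the clock gene Per1 by 1.08 and the repressor gene Nfil3 by 0.76. The 18-array differences were 1.25 for Sik1, 0.87 for Ppargc1a, 0.77 for Crem, 0.68 for Gem, 0.69 for Per1 and 0.48 for Nfil3. Members of the list with lower values that did not pass included Per2, at -0.28 (adjusted p = 0.55 by limma).

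The promoters of Nr4a1 and Ppargc1a are shown because both genes rose, belong to the CREB list and hold its motif. They held the most half-sites among the members that rose and had a promoter found, and the promoter of Per1 held none. Each is 250 bases before to 50 after the RefSeq start on GRCr8. Capitals mark the half-site TGACG or its complement CGTCA, searched on both strands. Nr4a1, at chr7:134259888-134260187 on the plus strand, held 4 half-sites. Ppargc1a, at chr14:63634058-63634357 on the plus strand, held 3, of which 2 overlap in a full TGACGTCA site.
Nr4a1: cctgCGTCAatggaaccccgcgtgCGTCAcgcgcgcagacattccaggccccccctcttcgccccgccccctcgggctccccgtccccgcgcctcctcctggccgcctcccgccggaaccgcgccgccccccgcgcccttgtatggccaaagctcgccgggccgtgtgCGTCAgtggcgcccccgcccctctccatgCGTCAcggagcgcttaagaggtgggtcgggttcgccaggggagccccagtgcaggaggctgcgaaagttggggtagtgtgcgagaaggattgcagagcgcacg
Ppargc1a: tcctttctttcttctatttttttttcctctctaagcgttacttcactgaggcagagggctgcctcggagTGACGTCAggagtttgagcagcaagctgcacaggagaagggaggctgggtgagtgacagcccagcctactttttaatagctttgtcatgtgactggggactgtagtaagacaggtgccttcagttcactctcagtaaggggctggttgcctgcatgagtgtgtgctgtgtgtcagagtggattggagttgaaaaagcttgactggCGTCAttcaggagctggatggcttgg
The half-site occurred in 22.0% of all 27457 promoters of that length and in 34.2% of the 7820 found for genes tested, and the full site in 1.91% and 3.45%. Only 75 of the 102 genes that rose had a promoter in the table, under the 80% needed, so a check of the motif over the set is void. A match of letters does not show that a factor binds there.

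Genes of the carbohydrate response and of the arrestin-domain family, to which Txnip belongs, came next. Txnip, whose product binds thioredoxin and limits glucose uptake, was 12.23, 12.18 and 10.23 on calcidiol with glucose 1, 2 and 3, against 10.53, 10.41 and 10.44 on calcidiol 1, 2 and 3. Calcidiol with glucose 3 was the lowest of the 6 arrays. Txnip rose by 1.73 (SE 0.08, adjusted p = 1.76e-06 by limma) on the 12 arrays, and on the 18 arrays it differed by 1.09 with a 95% interval of -0.08 to 2.26. Arrdc3, an arrestin-domain relative, was 7.60, 7.11 and 8.06 on calcidiol with glucose 1, 2 and 3, against 8.63, 8.54 and 8.05 on calcidiol 1, 2 and 3. It fell by 1.23 (SE 0.17, adjusted p = 0.00426 by limma), the largest fall among the genes tested. Of 17 tested members of this list 5 rose and 1 fell, with a median of 0.12 (0.08 on the 18 arrays), and the others that rose were Klf10, Bhlhe40 (1.02), the G-protein regulator gene Rgs16 (0.77) and Klf11 (0.61). Over the 18 arrays the differences were -0.82 for Arrdc3, 0.69 for Bhlhe40, 0.49 for Rgs16 and 0.41 for Klf11.

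Of 16 circadian clock genes tested 4 rose, namely Per1, Nfil3, Bhlhe40 and Bhlhe41, and 0 fell, or 5 and 0 with the replicate block, while the list's median was -0.06 (-0.03 on the 18 arrays). Bhlhe40 and Bhlhe41 encode repressors that bind the E-box, a motif shared by clock factors, MYC and ChREBP. Bhlhe41 was 10.42, 10.06 and 8.79 on calcidiol with glucose 1, 2 and 3, against 8.88, 8.89 and 8.92 on calcidiol 1, 2 and 3, and rose by 1.36 (SE 0.12, adjusted p = 2.22e-04 by limma). Bhlhe40 was 12.09, 12.17 and 11.38 on calcidiol with glucose 1, 2 and 3, against 11.01, 11.22 and 11.35 on calcidiol 1, 2 and 3. Between the arrays numbered 3 the difference was -0.12 for Bhlhe41 and 0.03 for Bhlhe40. Bhlhe41 differed by 0.87 on the 18 arrays.

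Their promoters are shown because each holds 1 E-box of the form CACGTG, in capitals, within the same window of GRCr8. Bhlhe40 lies at chr4:143174200-143174499 on the plus strand and Bhlhe41 at chr4:180569306-180569605 on the minus strand, both from RefSeq. The sequence CACGTG, which reads the same on both strands, occurred in 6.65% of all 27457 promoters and in 10.1% of the 7820 of genes tested.
Bhlhe40: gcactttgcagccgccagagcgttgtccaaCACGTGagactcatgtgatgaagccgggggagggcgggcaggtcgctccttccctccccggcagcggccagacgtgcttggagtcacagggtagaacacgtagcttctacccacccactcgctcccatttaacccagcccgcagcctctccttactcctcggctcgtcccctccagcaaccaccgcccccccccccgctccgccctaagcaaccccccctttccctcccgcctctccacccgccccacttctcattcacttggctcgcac
Bhlhe41: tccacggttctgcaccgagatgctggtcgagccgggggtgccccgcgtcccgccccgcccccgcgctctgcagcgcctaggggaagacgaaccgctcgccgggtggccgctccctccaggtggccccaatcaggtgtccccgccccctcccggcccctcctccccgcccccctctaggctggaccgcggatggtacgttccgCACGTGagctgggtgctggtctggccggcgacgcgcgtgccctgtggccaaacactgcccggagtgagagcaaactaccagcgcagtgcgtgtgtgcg

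Among secreted and feedback factors, Prok2, which encodes the peptide prokineticin 2, was 11.82, 11.77 and 9.02 on calcidiol with glucose 1, 2 and 3, against 9.53, 10.10 and 8.76 on calcidiol 1, 2 and 3. It rose by 1.98 (SE 0.19, adjusted p = 3.81e-04 by limma). Its difference of 0.27 between the arrays numbered 3 was the highest of the 102 genes that rose, though both values lay below every calcidiol array numbered 1 or 2. Spry1, an inhibitor of receptor tyrosine kinase signalling, rose by 1.36 and was the only member called of 12 tested in the list of MAP kinase phosphatases and Sprouty feedback genes, where 2 passed with the replicate block. The phosphatase gene Dusp1 differed by 0.48 (adjusted p = 0.17 by limma) and Dusp4 by 0.63 (adjusted p = 0.06 by limma). Prok2 differed by 1.41 on the 18 arrays, with a 95% interval of -0.11 to 2.93, and Spry1 by 0.93.

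Several genes of lipid and glucose metabolism were among those named. Lcat, which encodes the enzyme that esterifies cholesterol in plasma, was 8.17, 7.87 and 5.67 on calcidiol with glucose 1, 2 and 3, against 5.87, 5.89 and 5.46 on calcidiol 1, 2 and 3, and rose by 2.14 (SE 0.14, adjusted p = 3.10e-05 by limma). G0s2, whose product inhibits adipose triglyceride lipase, was 7.77, 8.27 and 6.36 on calcidiol with glucose 1, 2 and 3, against 6.24, 6.29 and 6.26 on calcidiol 1, 2 and 3, and rose by 1.75. Acot2, a mitochondrial acyl-CoA thioesterase gene, averaged 7.13 ± 0.44 with glucose and 6.47 ± 0.15 without (SD, n = 3 each), and rose by 1.00 in the 12-array fit. Of 27 glycolysis and glucose uptake genes tested, the phosphofructokinase activator gene Pfkfb3 rose by 1.15 and the lactate dehydrogenase gene Ldhb by 1.03, with a list median of 0.01. Of 31 sterol and fatty acid synthesis genes, the phosphomevalonate kinase gene Pmvk rose by 0.49, with an adjusted p of 0.0488 by limma. The differences on the 18 arrays were 1.5 for Lcat, 1.20 for G0s2, 0.66 for Acot2, 0.77 for Pfkfb3, 0.67 for Ldhb and 0.36 for Pmvk.

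Of 32 beta-cell identity and hormone genes tested 0 rose and 1 fell, or 2 with the replicate block, beside the 0.315% of all genes that fell, and the median was 0.01. Isl1, a homeobox factor gene of islet cells, was 10.08, 9.99 and 10.00 on calcidiol with glucose 1, 2 and 3, against 10.67, 10.41 and 10.00 on calcidiol 1, 2 and 3, and fell by 0.51 (SE 0.09, adjusted p = 0.0253 by limma). Both arrays numbered 3 were at the level of the glucose group. On the 12 arrays the insulin gene Ins1 differed by 0.02, with a 95% interval of -0.16 to 0.19. The difference of Ins2 was 0.01, within -0.13 to 0.15. Of 44 secretion and ion channel genes 1 fell, the inward rectifier gene Kcnj2, at -0.66 (SE 0.12, adjusted p = 0.0182 by limma), and the median was -0.05. Kcnj11, the pore of the ATP-sensitive channel, differed by -0.29 (adjusted p = 0.17 by limma). Isl1 differed by -0.34 and Kcnj2 by -0.49 on the 18 arrays.

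The stress and housekeeping lists are read against the 1.35% of all genes called. Of 31 amino acid response genes 1 rose, the stress-response gene Nupr1 (0.73), and 4 did with the replicate block, with a median of 0.12. Of 22 p53 and apoptosis genes, the polo-like kinase gene Plk3 rose by 1.20 and Bcl2l11, which encodes the pro-apoptotic protein BIM, by 0.73, and 3 of the list passed with the replicate block. Of 9 NF-kB genes tested, the subunit gene Nfkb2 rose by 0.62. With all 18 arrays Nupr1 differed by 0.47, Plk3 by 0.82, Bcl2l11 by 0.47 and Nfkb2 by 0.37. None was called among 32 unfolded protein response, 19 oxidative stress, 16 heat shock, 36 cell cycle, 47 oxidative phosphorylation, 74 cytosolic ribosomal protein and 8 Id and TGF-beta genes. In the vitamin D lists, none of 13 receptor and metabolism genes was called, and of 9 response genes only G0s2. Vdr, the vitamin D receptor gene, was 7.37, 7.73 and 8.49 on calcidiol with glucose 1, 2 and 3, against 7.50, 8.05 and 8.41 on calcidiol 1, 2 and 3, a difference of -0.23 (95% interval -0.60 to 0.14) on the 12 arrays. Cyp24a1 was not analysed here.

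**Figure D3:**
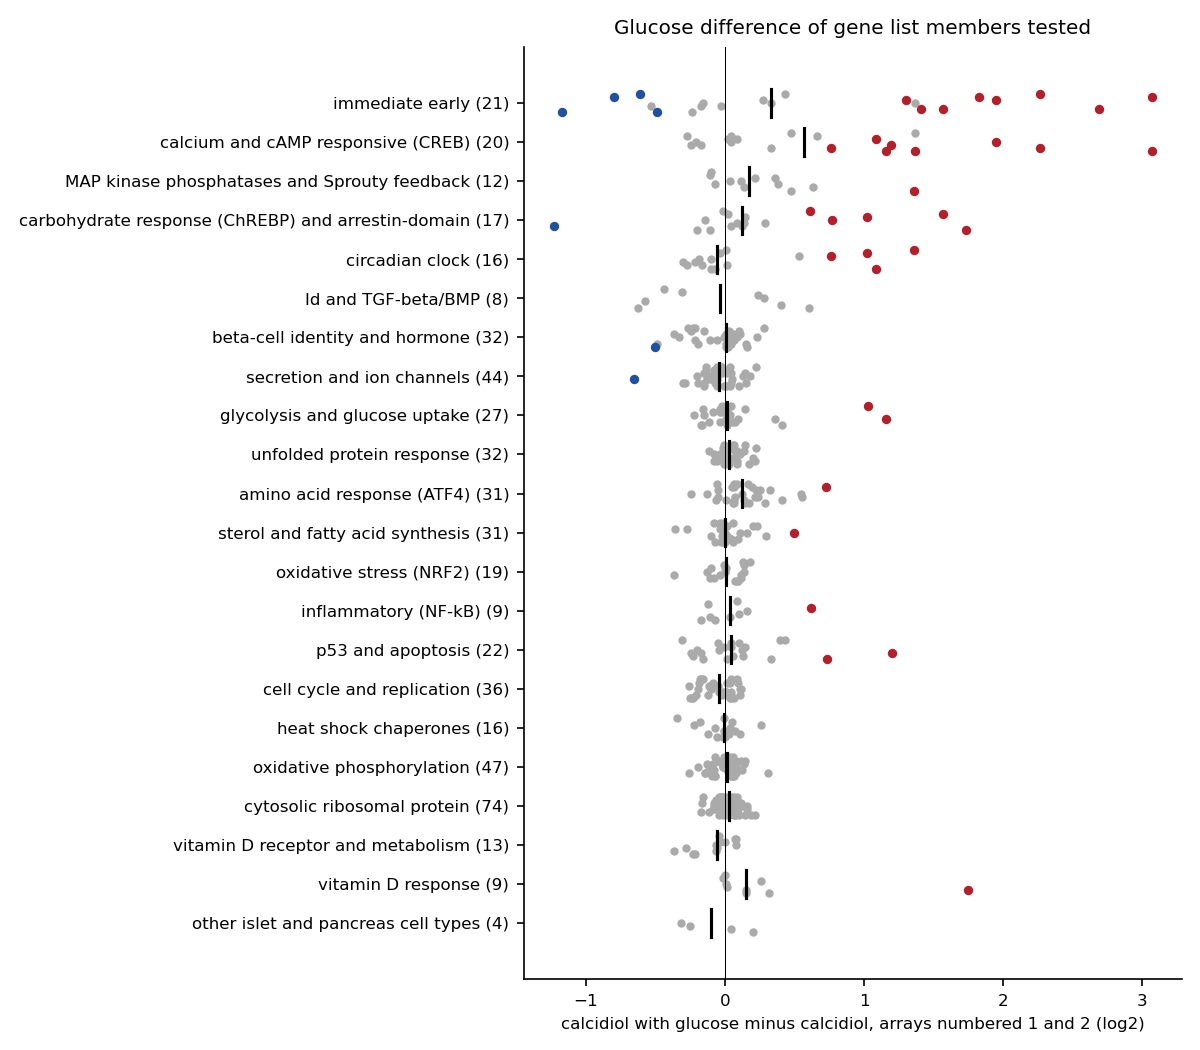
Log2 difference calcidiol with glucose minus calcidiol on the arrays numbered 1 and 2 (x axis) for each tested member of 22 gene lists, with the number tested in brackets and a black bar at the list's median. Red members rose and blue members fell by limma at an adjusted p of 0.05. They were most frequent in the immediate early, CREB, carbohydrate response and clock lists, which share members. The lists were chosen with earlier results of these data known.

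Among other genes that fell, Prmt6, an arginine methyltransferase gene, was 5.99, 5.93 and 6.68 on calcidiol with glucose 1, 2 and 3, against 7.10, 6.80 and 6.67 on calcidiol 1, 2 and 3, and fell by 0.99 (SE 0.13, adjusted p = 0.00349 by limma). The zinc finger genes Rbak and Zbtb3 fell by 0.67 and 0.66, R3hcc1l by 0.78, the ubiquitin ligase subunit gene Fbxo46 by 0.62, the cytokine signalling inhibitor gene Cish by 0.61 and Gltscr1 by 0.61. For Rbak and Zbtb3 the calls were marginal, with adjusted p of 0.0440 and 0.0314 by limma. Prmt6 differed by -0.66 on the 18 arrays and the other 6 genes by -0.48 to -0.38.

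The probe sets of 2 microRNA genes rose, and they are named after their values were seen. Mir23b was 6.89, 7.16 and 6.50 on calcidiol with glucose 1, 2 and 3, against 5.95, 5.89 and 6.59 on calcidiol 1, 2 and 3, and rose by 1.11 (SE 0.13, adjusted p = 0.00200 by limma). Mir301a rose by 0.63 (SE 0.11, adjusted p = 0.0171 by limma). On the 18 arrays Mir23b differed by 0.71 and Mir301a by 0.39. These probe sets read RNA of the locus, which need not be the mature microRNA. The mature sequences are given from RefSeq on GRCr8 with the seed, bases 2 to 8, in capitals. The 3p arm of miR-301a was missing from the reference used, so only the seed of its 5p arm is shown. No seed is shared among these 3, of which the 2 arms of miR-23b lie at chr17:1819405-1819425 and chr17:1819442-1819462 on the minus strand and miR-301a-5p at chr10:72422622-72422642 on the plus strand.
rno-miR-23b-3p: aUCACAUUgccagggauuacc
rno-miR-23b-5p: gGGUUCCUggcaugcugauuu
rno-miR-301a-5p: gCUCUGACuuuauugcacuac

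The arrays numbered 3 were left out of the fit that called the 133 genes with the likeness of the calcidiol pair already known, so their values for these genes are a description and no independent check. Of the 102 genes that rose, 40 (39.2%) were higher on calcidiol with glucose 3 than on calcidiol 3, against 46.8% of all genes tested, and none differed by 0.5. Their median difference was 0.783 between the arrays numbered 1, 0.801 between those numbered 2 and -0.0369 between those numbered 3. Of the 31 genes that fell, 17 (54.8%) were higher on calcidiol with glucose 3, with medians of -0.602, -0.444 and 0.0075 for numbers 1, 2 and 3.

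Each array was also placed on a scale where 0% is the mean of calcidiol 1 and 2 and 100% the mean of calcidiol with glucose 1 and 2. Over the 102 genes that rose, the median position was 0.736% on calcidiol with glucose 3 and 1.12% on calcidiol 3. The genes were spread to both sides of that median. On calcidiol with glucose 3, 46 of them lay within 25% of the 0% point, 29 lay lower and 4 lay over 75%, and on calcidiol 3 these numbers were 48, 26 and 5. Icoslg, a gene of a costimulatory ligand chosen after its values were seen, ran low on both arrays, at -139% on calcidiol with glucose 3 and -169% on calcidiol 3. Mycn ran high on both, at 120% and 117%, and Nr4a1 was part of the way, at 61.5% and 70.4%.

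Over the 31 genes that fell, the median positions were 40.3% on calcidiol with glucose 3 and 42.7% on calcidiol 3, and Isl1 lay at 107% on both. Among the other groups, the median for the genes that rose was 72.2% on calcitriol with glucose 3, 50.8% on calcitriol 3, 21.1% on glucose 3 and 2.33% on control 3.

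**Figure D4:**
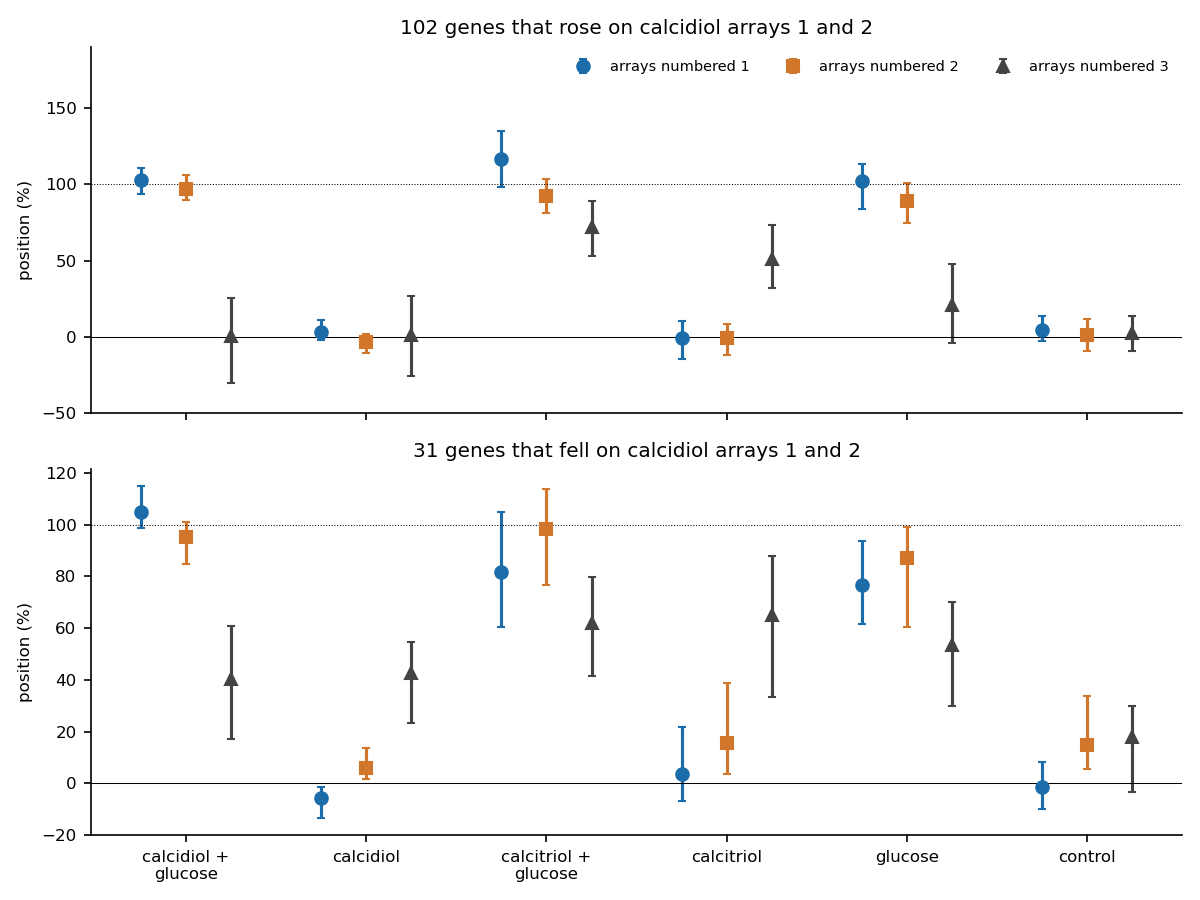
Position of each array (x axis, by group and array number) between the mean of calcidiol 1 and 2 (0%) and that of calcidiol with glucose 1 and 2 (100%), as the median over the genes that rose (top) and fell (bottom), with bars from the 25th to the 75th percentile. Calcidiol arrays numbered 1 and 2 are near 0% and 100% by construction, and both calcidiol arrays numbered 3 lie near 0% in the top panel and near 40% in the bottom one.

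The genes that differed most between the 2 calcidiol arrays numbered 3 were others. Ifnl3, an interferon lambda gene, was 7.50, 6.86 and 7.30 on calcidiol with glucose 1, 2 and 3, against 7.15, 6.68 and 6.71 on calcidiol 1, 2 and 3, and its difference of 0.591 was the highest. It was followed by the oxygen sensor gene Egln1 (0.398), Aldh3b2 (0.378), Otp (0.378) and Mir92b (0.366). MGC116197, a symbol of the kind passed over in naming genes, had the largest difference of all, at -0.678. The next lowest among the genes named were Gtdc2 (-0.409), Rnf138 (-0.371), Npas4 (-0.344), Fgf14 (-0.341) and Rap1b (-0.331). With 1 array on each side these values have no replicate check.

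The last question was whether the glucose difference after calcidiol was unlike that after calcitriol or without vitamin D. Interaction contrasts, which share no array between their sides, called 0 of 9852 genes (0.0%) against either, on 18 and on 12 arrays. Against no vitamin D, 32 genes had an unadjusted p under 0.05 on the 18 arrays and 138 on the 12, and against calcitriol 97 and 247. Each count is below the share of 0.05 expected if no gene differed. On the 12 arrays the median gene's 95% interval reached 0.308 to either side, which limits what could be seen.

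Txnip differed after glucose by 1.73 after calcidiol, 1.81 after calcitriol and 1.82 without vitamin D, and the calcidiol difference minus that without vitamin D was -0.09 (95% interval -0.33 to 0.16). Against calcitriol it was -0.07 (-0.32 to 0.17). For Jun the same contrasts were 0.08 (-0.23 to 0.38) and 0.03 (-0.27 to 0.34). For Nr4a1 they were 0.24 (-0.52 to 0.99) and -0.54 (-1.29 to 0.21), and the second interval reaches past a difference of 1 log2 unit. These values came from the fit with fewer arrays. With all arrays the same contrasts were -0.27 (-1.93 to 1.38) and -0.17 (-1.83 to 1.48) for Txnip. For Jun they became 0.31 (-0.38 to 1.00) and 0.09 (-0.61 to 0.78). Those of Nr4a1 were -1.05 (-3.07 to 0.98) and -0.55 (-2.58 to 1.47), so the first changed sign. These wider intervals do not show that the glucose differences were alike.

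In the fit with fewer arrays, Nr4a2 had one of the smallest unadjusted p against no vitamin D. Its glucose difference was 2.26 after calcidiol, 1.84 after calcitriol and 1.38 without vitamin D, and the contrast of calcidiol with no vitamin D was 0.88 (95% interval 0.39 to 1.37, adjusted p = 1 by limma). The same contrast was -0.52 (-0.83 to -0.21) for Alkbh4 and -0.38 (-0.61 to -0.15) for Lpxn. Against calcitriol, Cep19, which encodes a centrosome protein, had a contrast of 0.54 (0.26 to 0.83), Snapc3 0.53 (0.24 to 0.81), Lrrcc1 0.56 (0.24 to 0.87) and the synaptic immediate early gene Arc -0.72 (-1.12 to -0.32), each with an adjusted p of 0.998 by limma. With the replicate block the smallest p of both contrasts belonged to Ppargc1a, at 0.58 against no vitamin D and 0.63 against calcitriol, with adjusted p of 0.999 and 0.891 by limma.

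**Figure D5:**
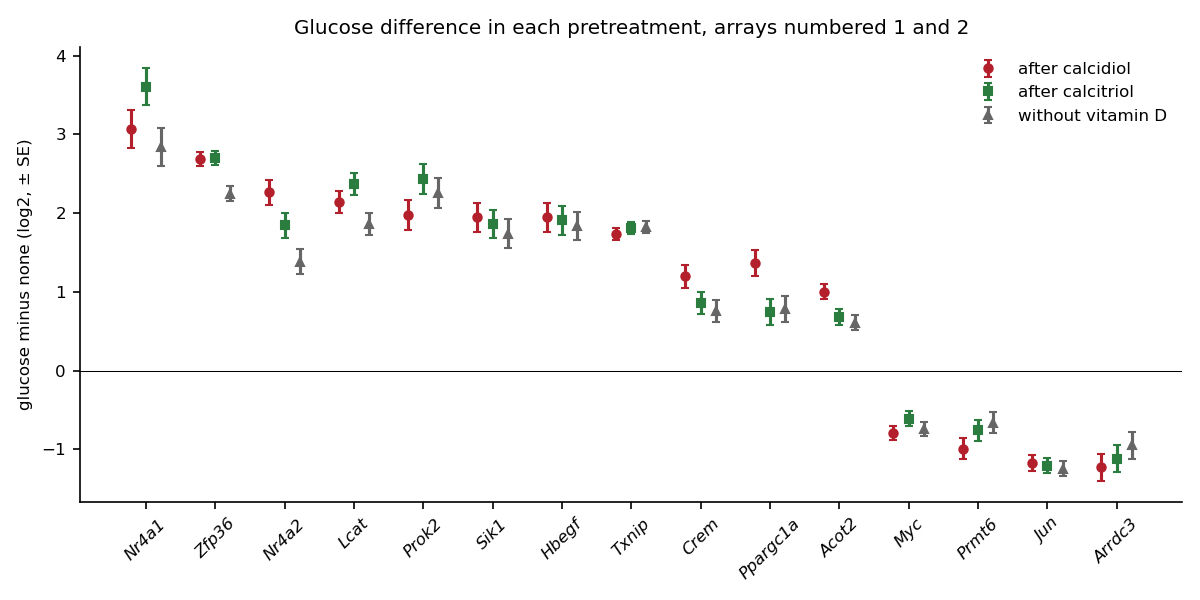
Glucose minus none in log2 units (y axis, ± SE from the limma fit of the 12 arrays numbered 1 and 2) for 15 genes (x axis) after calcidiol, after calcitriol and without vitamin D. The 3 values of a gene lie close for Txnip and Jun. They lie farther apart for Nr4a1, highest after calcitriol, and for Nr4a2 and Ppargc1a, highest after calcidiol. No interaction passed the threshold.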

How the data were processed

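Total RNA of 18 samples, 150 ng each, was measured on Affymetrix rat gene arrays. The deposited values are log2 signals that the authors normalised, and RMA and Partek are named, without a role, in the submitters' processing notes. The settings and versions of these tools, and the rule that selected the attached table's 17017 of 29214 probe sets, are not stated in any source used here. Log2 values were used as deposited, with 1 probe set for each of 13136 symbols (the highest mean), and the 25% of genes lowest in mean signal were dropped, so that 9852 were tested. Symbols with no match in RefSeq GRCr8 kept the file's name, and those turned into dates were not named.

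One limma 3.58.1 model (R 4.3.3) of the 6 groups gave each difference. P-values were adjusted by Benjamini-Hochberg over the genes tested, and the threshold was 0.05. Python 3.11.15 with numpy 2.4.6, pandas 2.3.3 and, for plots, matplotlib 3.10.9 did the rest. The script was tested on simulated data. The members, the 22 gene lists, the tests and the fit without the arrays numbered 3 were chosen with earlier results of these data known. Named genes were the 12 highest and 12 lowest called in that fit, the 4 of smallest p on 18 arrays, up to 3 called members of each list, Txnip, Ins1, Ins2, Vdr, Egr1, Fos and Casr, the 5 highest and 5 lowest differences between the calcidiol arrays numbered 3, and the 4 of smallest p in each interaction. LOC, RGD, numbered predicted (such as MGC) and date-like symbols were passed over, list members were also named where their list is described, and some picks are not reported here.

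Same-numbered calcidiol with glucose and calcidiol arrays deviated together from their group means (correlations of 0.606, 0.714 and 0.687 for numbers 1, 2 and 3), and in the other pretreatments the lowest was 0.179. Deviations within a group cancel out by construction. The likeness of the calcidiol arrays numbered 3 therefore also raises the correlations for numbers 1 and 2, which do not show a shared culture. These correlations were the only ground for pairing by number, since the labels name no shared culture. All p-values given without mention of a block come from group means with no block. The fit with the number as a block was an alternative. The number of arrays limits the precision.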

Additional observations from a re-analysis of the deposited data

How the results depend on the processing

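The count of genes called for glucose after calcidiol was 0 on the 18 arrays by limma and turned on the arrays numbered 3. It was 133 without replicate 3 and 0 without replicate 1 or replicate 2, 15 with both calcidiol arrays numbered 3 left out and 27 without calcidiol with glucose replicate 3 (26 of them among the 133), and 0 with any other single array left out. It was also 0 with the replicate block, without the filter, with the lowest 50% left out, with the series matrix values, quantile normalisation, median centring, probe sets averaged by gene or all tested, an intensity trend, array weights and only the compared groups. With replicate 3 left out as well, the replicate block gave 241, quantile normalisation 191, median centring 194, no filter 156 and only the compared groups 36, of which 133, 132, 131, 116 and 35 were among the 133. Leaving out 1 further calcidiol array gave between 71 and 401. The settings that joined a second choice to the omission of replicate 3, apart from the block, were chosen after seeing the data. Both interactions stayed at 0 in every setting run. Of 2574 values of 62 named genes under other settings, 0 reversed a called direction, and 120 had another sign while called in neither fit. A reversal could hardly occur, because every setting that called a gene for glucose after calcidiol left out calcidiol with glucose replicate 3. Why the arrays numbered 3 differ was not tested.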

Other observations

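Of the 133 genes called on the 12 arrays, 98 were in none of the 22 lists. The following were chosen from these after their values were seen, so they show no theme. Among genes that rose were Cdk5r1, whose product activates the kinase CDK5 (1.54), Camkk1, a kinase upstream of the calmodulin kinases (1.46), the lysosomal thiol reductase gene Ifi30 (1.24) and the chemokine gene Cxcl16 (1.21). Others were the transcription factor genes Mycn (1.06), Neurod2 (0.97) and Bach1 (0.77), the thiamine transporter gene Slc19a2 (0.88), Orai2, a subunit of store-operated calcium channels (0.81), the exchange factor gene Rasgrp2 (0.78) and the phosphate transporter gene Slc20a1 (0.54). Genes that fell included the coregulator gene Cited2 (-0.47), the caspase gene Casp2 (-0.42) and Tp53bp2 (-0.41), whose product binds p53. None of these was called on the 18 arrays.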
